A study of Mus musculus with 7 samples.

Results

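The metalloproteinase family was described in the carotid arteries of heterozygous ApoE mice from reciprocal crosses. Members were the genes whose array annotation gave a single symbol of the Mmp, Timp (1 to 4) or numbered Adamts series, each read from its probe set with the highest mean signal over the 7 arrays. This gave 37 of 18194 genes with a single-symbol probe set: 18 matrix metalloproteinases (MMPs), 4 tissue inhibitors of metalloproteinases (TIMPs) and 15 ADAMTS proteases. The members were chosen by name, by a rule set with earlier results of these data known. Of the other genes of these symbol series, Adamts2, Adamts13, Adamts14, Adamts17, Mmp15, Mmp21, Mmp25, Mmp27 and Mmp28 are not analysed here.

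All offspring carried 1 null allele of Apoe, the gene of apolipoprotein E, a ligand that takes lipoproteins out of the circulation. For 3 samples the female parent was wild type with normal cholesterol and the father was ApoE-/-. For 4 samples the mother was ApoE-/- and hypercholesterolemic and the father was wild type. The series asked whether parental cholesterol bears on the susceptibility of offspring to atherosclerosis. Strain, age, sex, litter and batch are not stated in the labels, and nothing says that arrays are of separate animals, so p-values measure the spread between these samples, which may be technical. Mother and father differed together between the crosses, so their effects cannot be told apart.

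MMPs are zinc-dependent endopeptidases that are made as inactive precursors and, once activated, cleave collagens, elastin, proteoglycans and other matrix proteins. ADAMTS proteases share the zinc-binding catalytic fold and carry thrombospondin repeats that bind them to the matrix, where several of them cut the large proteoglycans versican and aggrecan. TIMPs bind the active site of these enzymes and block it. In arteries the family is known for its part in remodelling of the wall, smooth muscle migration and thinning of the plaque cap.

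Signals are linear MAS5 intensities, scaled by the authors so that every array had the same trimmed mean. Of artery markers, 10 of 10 smooth muscle, 11 of 11 endothelial and 10 of 10 fibroblast genes were above the filter used for testing. That filter was on the mean signal over the 7 arrays. The summed smooth muscle signal was 36186 to 46566 on the 3 wild-type mother arrays and 37160 to 46776 on the 4 ApoE-null mother arrays, and the summed fibroblast signal 45165 to 54743 and 45324 to 53330. The array of wild-type mother 2 stood apart, with a signal of 41.2 for Xist, the RNA of X inactivation in females, against 5174 to 5931 on the other arrays. It also had a skeletal muscle sum of 2815 against 170 to 428, and the highest 3 prime to 5 prime ratio of Gapdh (7.80 against 5.03 to 6.56). Thymocyte markers summed to 65.2 to 179.9 in the wild-type mother group and 453.8 to 763.5 in the ApoE-null mother group, and nerve and carotid body markers to 2402 to 6308 and 989 to 3199. Their part in the results below was not tested. Endothelial sums were 5625 to 7042 and 5367 to 7853, and mast cell sums 332 to 903 and 405 to 1158. Below, background means the highest of 27 probe sets for bacterial transcripts on the same array, which was at most 22.0. In whole tissue, fewer cells of a type and less RNA per cell cannot be told apart.

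Of the 37 members, 24 had a mean signal above 23.6, the 40th percentile of all probe sets, and entered the test (9 Mmp, 4 Timp and 11 Adamts). Of these 24, none passed at an adjusted p under 0.05 (limma with Benjamini-Hochberg adjustment over 27027 probe sets, of which 1, or 0.0037%, passed). Adjusted p-values of the members were 0.459 to 0.976. At an unadjusted p under 0.05 in limma, 4 members were higher and 2 lower with an ApoE-null mother, where 4.3% and 3.96% of all probe sets were. Without wild-type mother 2 these counts were 4 and 0, where 9.38% of all probe sets had such a p in either direction. The count of lower members was 1 without wild-type mother 1, ApoE-null mother 2 or ApoE-null mother 3. It was 2 to 3 without each of the other 3 arrays, while the count of higher members stayed at 3 to 4. Of all probe sets, 8.25% had such a p in either direction with all 7 arrays, and 5.48% to 9.62% when 1 array was left out. Groups did not overlap for 6 members (4 higher and 2 lower), or 25% of those tested, against 8.02% of all probe sets (4.01% higher and 4.01% lower). Without wild-type mother 2 the count was 7 of 24 members against 18.7% of all probe sets. Without wild-type mother 1 it was 11 of 24 members against 18.2%. The median log2 fold change of the members was -0.02, and that of all probe sets was -0.0041. On the main probe sets the families differed in sign. Values were positive for 1 of 9 Mmp, 1 of 4 Timp and 9 of 11 Adamts members, beside 49.4% of all probe sets. Averaging the tested probe sets of each gene made Mmp9 and Timp2 positive, and the count of positive members went from 11 to 13. This difference between the families was not tested.

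**Figure D1:**
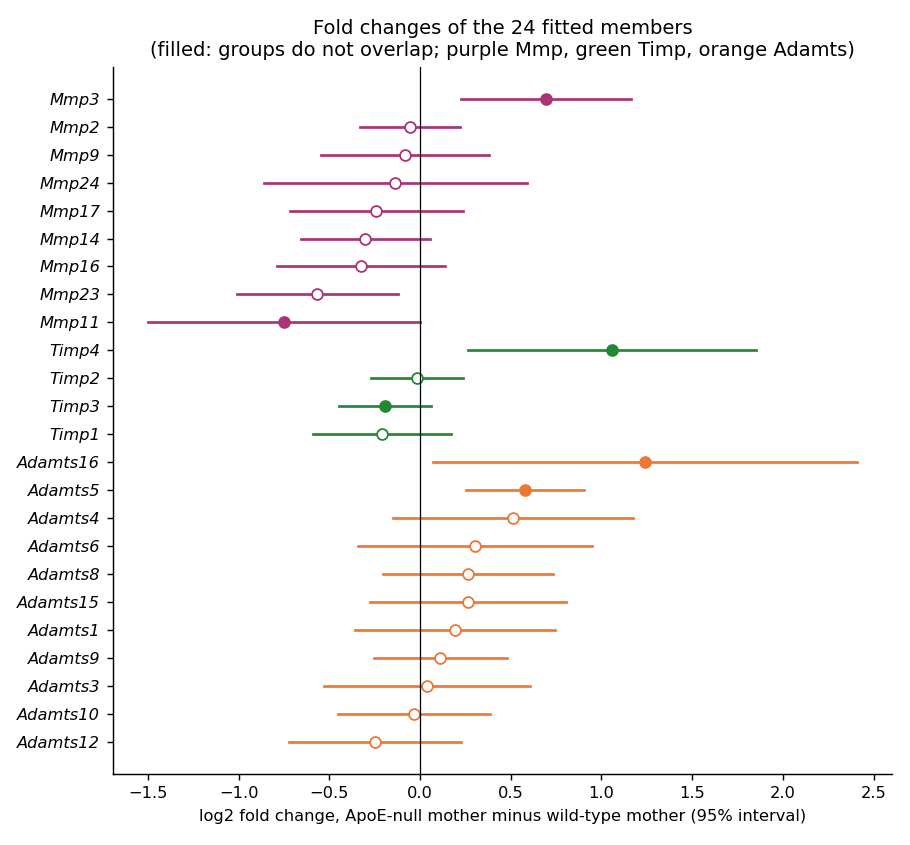
Log2 fold changes (horizontal axis, ApoE-null mother minus wild-type mother, on log2(signal + 2)) of the 24 tested members with 95% intervals, 1 gene per row. Filled points mark the 6 members whose groups did not overlap. Most Adamts points lie right of 0 and most Mmp points left of it, and 6 intervals exclude 0 before adjustment.

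Among the 4 secreted MMPs that were tested, Mmp3 was the member with a higher mean log2 signal in the offspring of ApoE-null mothers. Mmp3 encodes stromelysin-1, which cleaves proteoglycans, fibronectin and laminin and activates other MMP precursors. Its signals were 916.5, 617.3 and 990.0 with a wild-type mother and 1009.0, 1186.8, 1653.5 and 1602.4 with an ApoE-null mother. The lowest array of the second group lay just above the highest of the first. Means were 841 ± 197 (SD, n = 3) and 1363 ± 315 (SD, n = 4), or 0.69 in log2 fold change (standard error 0.21, 95% interval 0.22 to 1.16, limma, adjusted p = 0.510). The value was 0.49 without wild-type mother 2, on which Mmp3 was lowest. The gene did not pass the test.

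Mmp3 lies on chromosome 9 among other secreted MMP genes, and its promoter is shown because it holds letters found in most of these neighbours. The bases before the annotated start were taken from RefSeq (GRCm38.p6, 250 bases, 5′ to 3′ on the strand of the gene) for 23 of the 37 members. Both strands were searched for TGANTCA, the core bound by AP-1, and TATAAA, the TATA box, which do not overlap each other here. Capitals mark these matches. Mmp3 (chr9:7445572-7445821, plus strand) had 1 match of each, and so did Mmp10 (chr9:7502092-7502341, plus strand), the stromelysin-2 gene of the same cluster. Timp4 (chr6:115252206-115252455, minus strand), described below with the inhibitors, had no match.
Mmp3: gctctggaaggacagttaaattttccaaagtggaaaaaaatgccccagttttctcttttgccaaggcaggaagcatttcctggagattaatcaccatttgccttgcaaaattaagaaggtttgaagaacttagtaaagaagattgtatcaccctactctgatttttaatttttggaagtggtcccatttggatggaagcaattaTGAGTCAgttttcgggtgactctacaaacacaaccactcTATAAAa
Mmp10: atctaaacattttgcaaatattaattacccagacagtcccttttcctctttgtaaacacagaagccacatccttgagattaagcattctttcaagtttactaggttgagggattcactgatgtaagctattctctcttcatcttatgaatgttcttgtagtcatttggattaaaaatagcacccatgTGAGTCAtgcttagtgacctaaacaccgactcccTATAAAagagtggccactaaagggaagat
Timp4: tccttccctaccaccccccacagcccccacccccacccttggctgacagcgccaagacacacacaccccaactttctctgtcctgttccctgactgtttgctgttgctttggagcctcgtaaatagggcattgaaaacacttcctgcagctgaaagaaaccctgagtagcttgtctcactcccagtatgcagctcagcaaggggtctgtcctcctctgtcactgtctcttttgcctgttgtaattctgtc

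The TGANTCA match lay 46 to 40 bases before the start in Mmp3 and 63 to 57 bases before it in Mmp10. A window with TGANTCA was found for 8 of 23 members (Mmp1a, Mmp1b, Mmp3, Mmp7, Mmp10, Mmp12, Mmp13 and Mmp20), all on chromosome 9. By window, TGANTCA was in 8 of the 26 member windows, against 6.75% of 32851 promoter windows of this length. TATAAA was found for 8 members, 7 of them in the same window as TGANTCA and the other Adamts1. It was in 8 of the 26 member windows, against 12.4% of all windows. Of the 8 genes with TGANTCA, Mmp3 alone had a mean signal above the filter, and the others are described with the low members below. A match is a description of these letters and says nothing of whether a factor was bound.

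Mmp11, the gene of stromelysin-3, which unlike most secreted MMPs is activated inside the cell by furin-type proteases, had lower signals with an ApoE-null mother. They were 84.3, 83.5 and 75.1 with a wild-type mother and 74.5, 32.8, 28.1 and 71.7 with an ApoE-null mother. The groups were separated by less than 1 unit, and ApoE-null mothers 2 and 3 were low while 1 and 4 lay near the other group. Means were 81.0 ± 5.10 (SD, n = 3) and 51.8 ± 24.7 (SD, n = 4), or -0.75 in log2 fold change (standard error 0.34, limma, adjusted p = 0.605).

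Neither gelatinase passed the test. Mmp2, gelatinase A, which cleaves denatured collagen and basement membrane collagen, had signals of 4470 to 4933 on the 3 wild-type mother arrays and 4038 to 5186 on the 4 ApoE-null mother arrays. ApoE-null mothers 2 and 3 lay below the first group, and ApoE-null mothers 1 and 4 above it. The log2 fold change, -0.05, had a 95% interval of -0.33 to 0.22 (limma, adjusted p = 0.930), and a second probe set gave -0.02. Mmp9, gelatinase B, a product of neutrophils and macrophages among other cells, had signals of 56.9 to 82.4 and of 58.3 to 65.5. The log2 fold change, -0.08, had a 95% interval of -0.55 to 0.38 (limma, adjusted p = 0.938), while its second probe set gave 0.09. Macrophage markers, of which 11 of 12 were above the filter, summed to 7466 to 9034 in the wild-type mother group and 7956 to 9967 in the ApoE-null mother group. The 8 neutrophil markers summed to at most 219.5 on any array, and Cxcr2 stayed below background on all 7.

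All 5 membrane-bound MMPs that were tested had negative fold changes on their main probe sets, with a median of -0.30 and none past the test. This grouping by membrane anchor was made after the values were known. Mmp23, a protease held in the membrane by its amino-terminal end, had signals of 1020.9, 1529.0 and 1286.2 with a wild-type mother and 891.6, 873.1, 619.0 and 1092.5 with an ApoE-null mother. ApoE-null mother 4 lay above wild-type mother 1, and the other arrays did not overlap. Means were 1279 ± 254 (SD, n = 3) and 869 ± 194 (SD, n = 4), or -0.57 in log2 fold change (standard error 0.20, limma, adjusted p = 0.550). The other Mmp23 probe set gave 981 ± 124 (SD, n = 3) and 684 ± 121 (SD, n = 4), with no array of either group reaching the other, and a log2 fold change of -0.53 (limma, adjusted p = 0.523).

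Mmp14 encodes MT1-MMP, which cleaves collagen at the cell surface and activates the Mmp2 precursor together with Timp2. Its signals were 686.9, 716.4 and 718.4 with a wild-type mother and 709.9, 467.3, 528.6 and 617.5 with an ApoE-null mother. The first group was tight, and ApoE-null mother 1 lay within it while the other arrays of its group lay below it. In log2 fold change this was -0.30 (standard error 0.16, limma, adjusted p = 0.654), and the other 2 probe sets of the gene gave -0.20 and -0.45. Mmp16 (MT3-MMP), Mmp17 (MT4-MMP, attached by a lipid anchor) and Mmp24 (MT5-MMP) had log2 fold changes of -0.33, -0.24 and -0.14, with intervals that included 0. Mmp16 was at -0.15 without wild-type mother 2 and Mmp17 at -0.08 without wild-type mother 3. Other probe sets of Mmp16 gave -0.01 and 0.04, and that of Mmp24 gave 0.08, so the sign of these genes depended on the probe set.

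**Figure D2:**
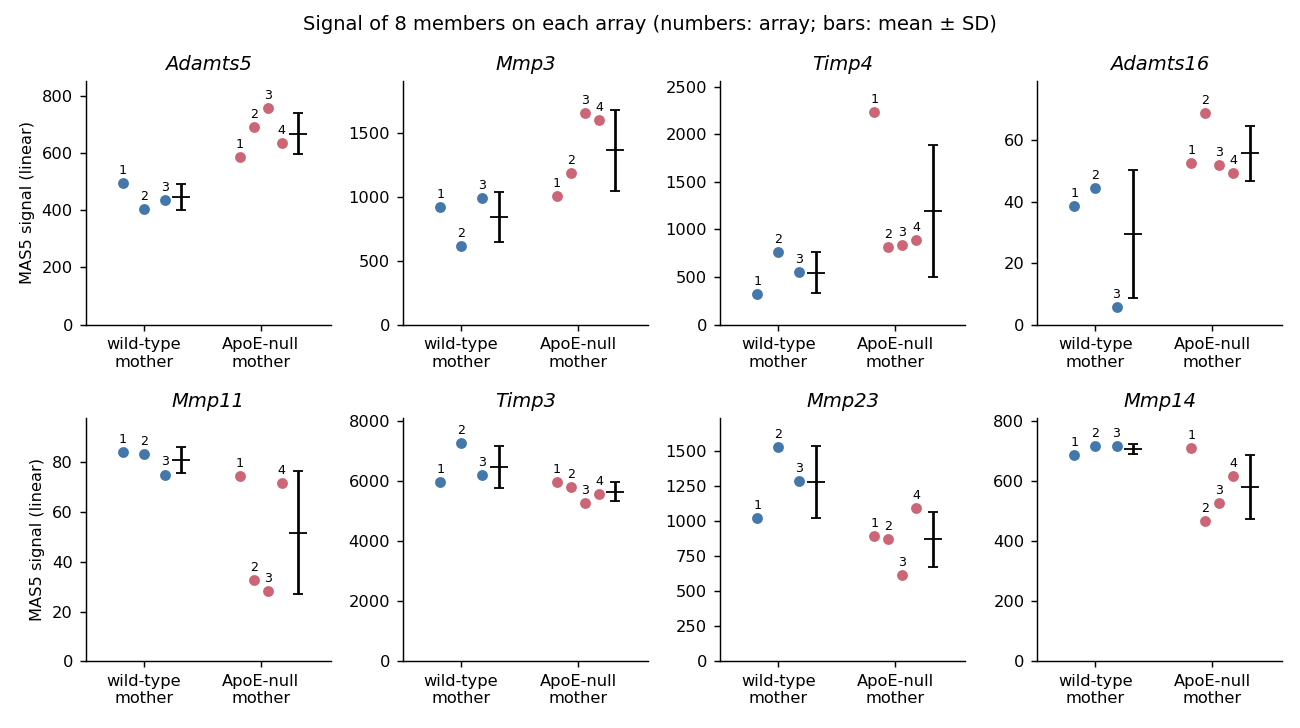
MAS5 signal (vertical axis, linear from 0) on each array for 8 members, with wild-type mother arrays in blue, ApoE-null mother arrays in red, array numbers above the points and the mean ± SD as black bars. Adamts5 shows the groups apart, at 405.3 to 496.7 and 587.4 to 756.1, while Timp4 has 1 array at 2229.9 far above the rest of its group.

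Of the inhibitors, Timp4 was higher with an ApoE-null mother and the other 3 members had negative fold changes, which for Timp2 and Timp3 depended on the probe set. None of the 4 passed the test. Timp4 is the TIMP with the most restricted expression and is known from heart, vessel and fat. Its signals were 323.9, 760.0 and 555.8 with a wild-type mother and 2229.9, 811.2, 835.5 and 887.0 with an ApoE-null mother. The groups did not overlap, but 3 of the 4 arrays of the second group lay close above wild-type mother 2, and ApoE-null mother 1 lay far above all others. Means were 547 ± 218 (SD, n = 3) and 1191 ± 693 (SD, n = 4), or 1.06 in log2 fold change (standard error 0.36, 95% interval 0.26 to 1.85, limma, adjusted p = 0.539). Without ApoE-null mother 1 the value was 0.71. A second probe set, with signals of 58.6, 64.4 and 95.8 against 190.2, 98.8, 130.7 and 94.9, gave 0.78, and its groups overlapped at 1 array.

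Markers of fat were also summed on each array. All 10 adipocyte genes with a probe set were above the filter, and they summed to 10092 to 26321 on the 3 wild-type mother arrays and 19913 to 28424 on the 4 ApoE-null mother arrays, with 19913 on ApoE-null mother 1, the lowest of its group. Of these genes, 8 of 10 had positive fold changes, and wild-type mother 3 had the lowest sum. The part of fat in the Timp4 difference was not tested.

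Timp1, which is induced in injury and binds the Mmp9 precursor, had means of 570 ± 124 (SD, n = 3) and 487 ± 46.9 (SD, n = 4) and a log2 fold change of -0.21 (limma, adjusted p = 0.765), or -0.06 without wild-type mother 2, the array with its highest signal (691.9). Timp2, the partner of Mmp14 in activating Mmp2, had signals of 6030 to 6547 and of 5753 to 7201. Its log2 fold change was -0.02 with an interval of -0.27 to 0.24, and its other 4 probe sets gave -0.19 to 0.24, with 1 of 4 negative. Timp3, which is held in the matrix and also inhibits ADAM and ADAMTS proteases, had signals of 5985.3, 7283.4 and 6201.3 with a wild-type mother and 5985.0, 5814.9, 5274.0 and 5573.5 with an ApoE-null mother. The groups of Timp3 were apart by only 0.3 units, and its log2 fold change was -0.19 (limma, adjusted p = 0.679). The other 3 probe sets of Timp3 gave -0.03, 0.05 and 0.14, so no direction is given for it.

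Most tested ADAMTS genes had higher mean log2 signals with an ApoE-null mother. The 6 tested members that are known to cleave versican or aggrecan were Adamts1, Adamts4, Adamts5, Adamts8, Adamts9 and Adamts15. All 6 had positive fold changes on their main probe sets, with a median of 0.27. However, Adamts1 turned negative without wild-type mother 2 and Adamts9 on another probe set (-0.04). This grouping was also made after the values were known, and none of the 6 passed the test. Adamts5, the main aggrecanase of mouse cartilage and a versican-cleaving enzyme of the vessel wall, had the smallest p of all members. Its signals were 496.7, 405.3 and 436.4 with a wild-type mother and 587.4, 689.5, 756.1 and 636.1 with an ApoE-null mother. Every array of the second group lay above the first by a gap larger than the standard deviation within either group. Means were 446 ± 46.5 (SD, n = 3) and 667 ± 72.4 (SD, n = 4), or 0.58 in log2 fold change (standard error 0.15, 95% interval 0.25 to 0.90, limma, adjusted p = 0.459).

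The value of Adamts5 stayed between 0.51 and 0.66 when each array was left out. Its other 2 tested probe sets were also positive, at 0.27 and 0.37 on the log2 scale, but their groups overlapped. In particular, wild-type mother 2 was the highest of its group on the first of them (607.3) and the lowest on the second (178.4). Averaged over the tested probe sets of the gene, the log2 fold change was 0.41.

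Adamts4, the other main aggrecanase, had signals of 34.7, 44.6 and 28.6 with a wild-type mother and 69.5, 38.4, 66.2 and 39.2 with an ApoE-null mother. ApoE-null mothers 1 and 3 were high and 2 and 4 lay within the first group, with a log2 fold change of 0.51 and a standard error of 0.30 (limma, adjusted p = 0.675). Adamts1, which cleaves versican and binds VEGF, had signals of 501.4 to 1003.2 and of 586.2 to 1008.1. Its log2 fold change of 0.19 turned to -0.10 without wild-type mother 2, which had the lowest signal. Adamts15, Adamts8 and Adamts9 had log2 fold changes of 0.26, 0.27 and 0.11, with intervals that included 0. Without wild-type mother 2, Adamts15 was at 0.10 and Adamts9 at 0.03. Cartilage, a tissue rich in these enzymes, was represented by 4 of 12 marker genes above the filter, and Col2a1, Col9a2 and Chad were below background on every array. The cartilage markers summed to 917 to 1194 in the wild-type mother group and 695 to 964 in the ApoE-null mother group.

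Among the other ADAMTS members, Adamts16, a protease linked to blood pressure in rats, had signals of 38.4, 44.3 and 5.6 with a wild-type mother and 52.5, 68.8, 51.9 and 49.4 with an ApoE-null mother. The groups did not overlap, but wild-type mother 3 was below background. In log2 fold change this was 1.24 (standard error 0.53, limma, adjusted p = 0.598), and it was 0.40 without wild-type mother 3. Adamts12, which degrades cartilage oligomeric matrix protein, had means of 166 ± 49.9 (SD, n = 3) and 136 ± 16.4 (SD, n = 4) and a log2 value of -0.25, or -0.03 when wild-type mother 1 was left out. Adamts10, a fibrillin-binding member, was at -0.03 and its relative Adamts6 at 0.30. Adamts3, a procollagen amino-terminal protease, was at 0.04 with an interval of -0.53 to 0.60.

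**Figure D3:**
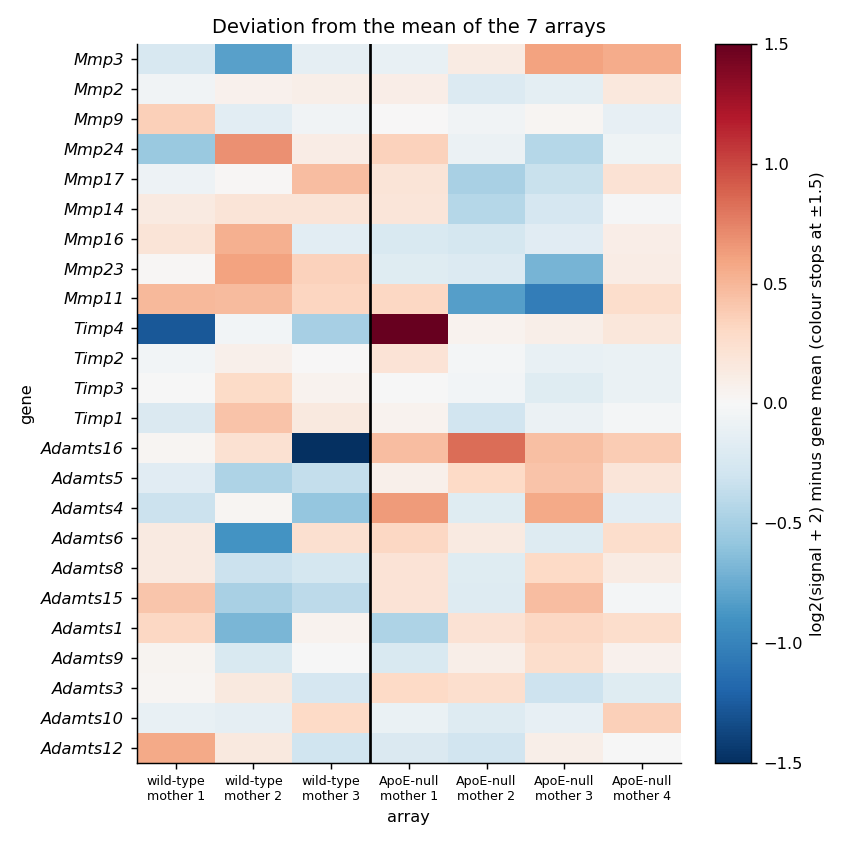
Deviation of log2(signal + 2) from the mean of the 7 arrays for the 24 tested members (rows) on each array (columns, the black line dividing the groups). Red is above and blue below the gene's mean. Wild-type mother 2 is blue for Mmp3, Adamts1 and Adamts6 and red for Mmp24 and Mmp23, and ApoE-null mothers 2 and 3 are blue for Mmp11.

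Members varied from array to array about as much as other genes. The standard deviation within groups had a median of 0.29 on the log2 scale over the 24 members and of 0.28 over all tested probe sets, and ranged from 0.11 for Timp3 to 0.93 for Adamts16. Wild-type mother 2 had the lowest signal for 8 of the 24 members and the highest for 5, where it was lowest for 21.5% and highest for 17.6% of all tested probe sets. ApoE-null mothers 1 and 4 were lowest for 0 members each, and for 10.5% and 14.1% of all tested probe sets. ApoE-null mother 2 was lowest for 6 members (12.6% of all tested probe sets) and ApoE-null mother 3 for 5 (14.5%).

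A second reading of the members came from their other probe sets. For 13 members at least 1 more probe set was tested, 22 in all, and 13 of the 22 had the sign of the first. For 7 of the 13 genes all probe sets had 1 sign (Adamts5, Adamts6, Adamts10, Mmp2, Mmp14, Mmp23 and Timp4). Mmp3, Mmp11, Adamts4 and Adamts16 had no second tested probe set. Probe sets of a gene share the RNA of the same arrays, so they are not replicates of the cross.

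**Figure D4:**
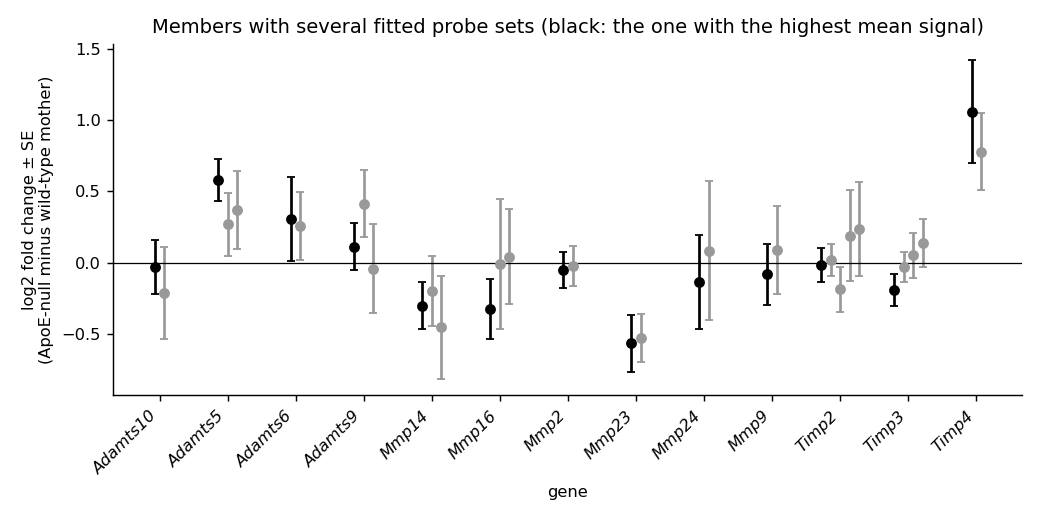
Log2 fold change ± SE (vertical axis, ApoE-null minus wild-type mother) of every tested probe set of the 13 members with several, black for the probe set with the highest mean signal and grey for the others. The points of Adamts5, Mmp23 and Timp4 stay on 1 side of 0, and those of Timp2 and Timp3 lie on both sides.

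The remaining 13 members did not reach the filter and were not tested, with a highest signal of 39.1 on any array. The members nearest to the filter of 23.6 were Mmp24 and Adamts16 above it, with mean signals of 42.4 and 44.4, and Mmp19 and Mmp7 below it, with 18.9 and 14.7. On all 7 arrays Mmp1a, Mmp1b, Mmp12, Mmp13, Adamts18 and Adamts19 were at or below background. Mmp13 is the main interstitial collagenase of the mouse, and Mmp12 is the elastase of macrophages. Mmp12 had signals of 1.1, 1.7 and 0.8 with a wild-type mother and 13.4, 7.7, 4.9 and 3.5 with an ApoE-null mother. These did not overlap, but all were below background, so no fold is given.

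Mmp7, matrilysin, a small MMP best known from glandular epithelium, had signals of 8.3, 3.5 and 2.1 with a wild-type mother, all below background. With an ApoE-null mother it had 6.9, 39.1, 31.5 and 11.6, above background on 3 of 4 arrays. Taking background in place of the first group gave a difference of at least 1.32-fold on log2(signal + 2), with no test. Mmp10 had signals of 4.3, 20.7 and 6.1 with a wild-type mother and 27.8, 7.3, 21.8 and 13.6 with an ApoE-null mother, and the groups overlapped. It was above background on 3 of 4 ApoE-null mother arrays and 0 of 3 wild-type mother arrays. Taken as for Mmp7, the difference was at least 1.17-fold. Background differed between arrays: 20.7 on wild-type mother 2 was below its 22.0, and 13.6 on ApoE-null mother 4 was above its 10.6. Of 11 epithelial and glandular markers with a probe set, 4 were above the filter, their sum was 217 to 369 on the 3 wild-type mother arrays and 254 to 559 on the 4 ApoE-null mother arrays, and Muc5b, Bpifa1 and Pth were below background throughout. The part of such tissue in the Mmp7 signal was not tested. Mmp19 was above background on 3 of 3 and 2 of 4 arrays, Mmp8, the collagenase of neutrophils, on 0 of 3 and 1 of 4, and Adamts20 on 1 of 3 and 1 of 4. Adamts7 and Mmp20 exceeded it on 1 of 3 wild-type mother arrays and on 0 of 4 ApoE-null mother arrays. Taken as for Mmp7, the bound was 0.79-fold for Mmp8 toward the ApoE-null mother group. Toward the wild-type mother group it was 0.37-fold for Adamts7 and 0.61-fold for Mmp20. Bounds below 1 give no least difference for these genes.

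**Figure D5:**
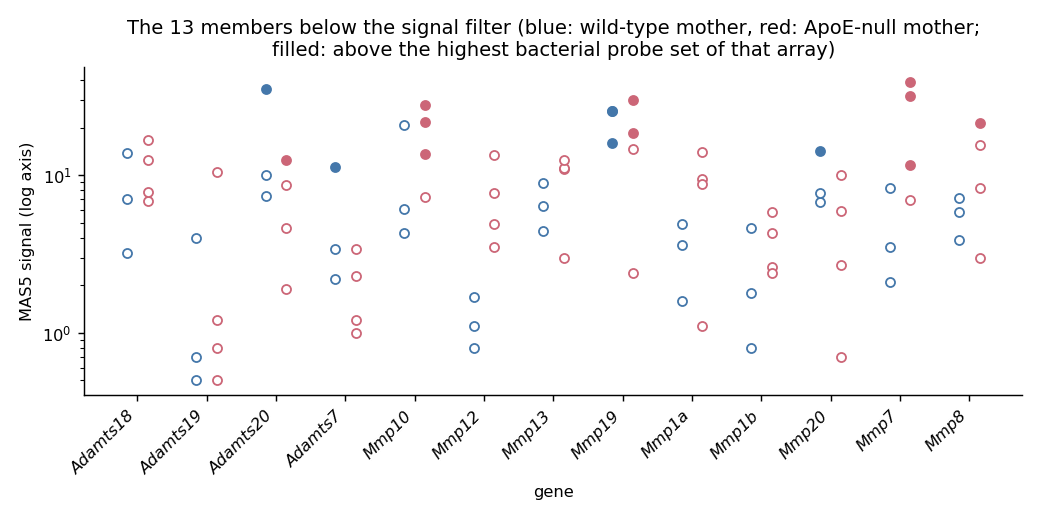
MAS5 signal (vertical log axis) of the 13 members below the filter on each array, blue for wild-type mother and red for ApoE-null mother, filled where the signal exceeded the highest bacterial probe set of that array. Mmp7 has 3 filled red points up to 39.1 and no filled blue point, and most other points are open.

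Genes that act with the family were read from 5 lists, and of the 90 genes tested none passed (limma, smallest adjusted p = 0.418). At an unadjusted p under 0.05 in limma, 3 of the 90 were higher and 4 lower, a share near the 4.3% and 3.96% of all probe sets. Of the list of activation and clearance, 19 of 29 genes were tested, 9 positive and 10 negative, with a median log2 fold change of -0.02. It included Thbs2, the gene of a matrix protein that aids the uptake of Mmp2, with signals of 248.4, 202.4 and 267.1 against 442.8, 427.8, 349.1 and 256.3. Only ApoE-null mother 4 lay within the first group, and the log2 fold change was 0.60 (limma, adjusted p = 0.543). Plat, tissue plasminogen activator, was at 0.23, Sdc4, a heparan sulfate proteoglycan of the cell surface, at -0.37, and Col18a1, the source of endostatin, at -0.35. Averaged over the tested probe sets of each gene, the log2 fold change was 0.20 for Thbs2, 0.01 for Plat and -0.04 for Sdc4. Another probe set gave -0.23 for Thbs2 and 0.29 for Sdc4, so the sign of these genes depended on the probe set. Of ADAM proteases and ADAMTS-like genes, 16 of 22 were tested, 8 positive and 8 negative, with a median of 0.01. Adam10, the main sheddase of Notch, and Adam15 were at 0.25 and 0.28, and another probe set of Adam15 at 0.07. Bmp1, the procollagen carboxy-terminal protease, was at -0.49, and Adamtsl4, a fibrillin-binding protein without catalytic activity, at -0.32.

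Of cathepsins and serine proteases of the wall, 15 of 19 were tested, 9 positive and 6 negative, with a median of 0.02. Mcpt4, a mast cell chymase, and Fap, a serine protease of fibroblasts, had log2 fold changes of 0.42 and 0.09. Tpsab1, a mast cell tryptase, and Htra1, a secreted serine protease, had values of -0.59 and -0.19. Tpsab1 was at -0.03 without ApoE-null mother 1 and at -1.04 without wild-type mother 1, Htra1 at -0.04 without wild-type mother 2, and Mcpt4 at -0.11 without wild-type mother 3. Of substrates, 22 of 26 were tested, 10 positive and 12 negative, with a median of -0.02. Brevican (Bcan), a proteoglycan of the versican family that Adamts4 and Adamts5 cleave, had signals of 160.1, 80.3 and 146.0 with a wild-type mother and 240.5, 228.1, 210.7 and 194.8 with an ApoE-null mother. Its groups did not overlap and its log2 fold change was 0.81 (limma, adjusted p = 0.480), or 0.51 without wild-type mother 2 and 0.47 on another probe set. Elastin (Eln) was at -0.67 without overlap (limma, adjusted p = 0.459), Comp at -0.41 and Tnc at 0.54. Of inducers, 18 of 23 were tested, 8 positive and 10 negative, with a median of -0.05. Cebpb, a transcription factor of the inflammatory response, had signals of 442.9, 425.5 and 450.2 against 602.6, 683.5, 816.1 and 660.0 and a log2 fold change of 0.64 (limma, adjusted p = 0.418). Klf4 was at 0.21, Junb, a component of AP-1, at -0.52, and Rela, a subunit of NF-kappaB, at -0.48. The inducer cytokine genes Il1a and Il6 were below background on all arrays.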

How the data were processed

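The 7 arrays (Affymetrix Mouse 430 2.0, 45101 probe sets) were grouped by cross, as labelled. RNA was amplified in repeated oligo-dT rounds and biotin-labelled, per the labels' protocols. The deposited intensity values are MAS5 signals, and GCOS is named too, per the submitters' processing notes, with versions not given in the sources used here. Deposited scaling was kept. Of the probe sets, 34958 had 1 symbol. Signals became log2(signal + 2), where the pseudocount is the 10th percentile of all values, which understates changes of low genes. The 64 control probe sets were dropped, leaving 27027 probe sets above the 40th percentile of mean signal. The fit used lmFit and eBayes with an intensity trend (limma 3.58.1, R 4.3.3), ApoE-null mother minus wild-type mother, without covariates, with Benjamini-Hochberg adjustment at 0.05 over all probe sets, and was tested on simulated data. The number of arrays limits the precision.

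The members, the 5 lists of related genes and the 12 marker lists were chosen with earlier results of these data known. Each gene was read from its probe set with the highest mean signal. Values were given for all Timp genes, the 6 Mmp and 6 Adamts members with the highest mean signal, members whose groups did not overlap, the 5 smallest p-values per direction, Mmp3, Mmp9, Mmp12, Mmp13, Adamts4 and Adamts5, and the 2 smallest p-values per direction of each related list. The remaining members were given because every member was to be accounted for. Alternatives were another pseudocount, filter, scaling, variance model or probe set, and leaving out each array.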

Additional observations from a re-analysis of the deposited data

Results flagged for a closer look

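In the group of 4 ApoE-null mother arrays, 1 array stood apart from the other 3 by Dixon's criterion for 4 of the 24 tested members. Chance marks about 1 in 20 such groups. Timp4 had a signal of 2229.9 on ApoE-null mother 1, where the others lay at 811.2 to 887.0. Adamts1 had its lowest signal, 586.2, on the same array, with the others at 941.7 to 1008.1. Adamts16 had 68.8 on ApoE-null mother 2, and Adamts10 had 266.2 on ApoE-null mother 4. Of the 20 named genes of the related lists, 1 met the criterion: Bmp1 had 444.9 on ApoE-null mother 4, with the other arrays of its group at 258.8 to 267.2.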

How the results depend on the processing

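No member or named related gene passed the limma test under the alternatives in which it was tested. The stricter filter left 17 of 24 members, and dropped Tpsab1, Tnc and Junb, and the choice among probe sets named _at gave no value for Mcpt4, Tpsab1, Rela and Adamtsl4. That choice turned Thbs2 to -0.227 and Sdc4 to 0.289. Of the 20 named members in the fit, 15 kept their sign under the alternatives run for them. Averaging the probe sets of a gene turned Mmp9 to 0.00276 and Timp2 to 0.0476, and quantile normalization turned Timp2 to 0.0182. When each array was left out, log2 fold changes ran from -0.10 to 0.40 for Adamts1, -0.16 to 0.11 for Adamts10, -0.12 to 0.00494 for Mmp2, -0.19 to 0.0721 for Mmp9, -0.0889 to 0.0190 for Timp2 and -0.11 to 0.78 for Mcpt4. Without the filter on mean signal the median over all 37 members was 0.11, since 13 low members then entered. Non-overlapping members numbered 6 to 11 of 24 when arrays were left out, where the share of all probe sets was 10.6% to 18.7%. They numbered 5 with median centring, quantile normalization or averaged probe sets, and 7 with probe sets named _at. The stricter filter gave 4 of 17 and no filter gave 7 of 37. For these settings the share of all probe sets was not computed, so their counts have no comparison. Of all probe sets, 1 was called in the fit as described, 3 with averaged probe sets, 2 with quantile normalization, 0 without an intensity trend, and 0 to 18 when arrays were left out (18 without wild-type mother 1, 4 without wild-type mother 3, 0 without any 1 of the ApoE-null mother arrays). No paired analysis was possible because the labels give the groups no shared replicate numbers. Signals near those of the bacterial probe sets limit the 13 low members and Adamts16.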
